A study of Mus musculus with 8 samples.

Results

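The collagen genes are the 36 genes, of 12393 measured through probe sets with a single gene symbol, whose symbol is Col, a number, a and a number. They were read by 58 of the 22626 probe sets tested, with 19 genes read by 2 or more probe sets and 17 by 1. Members were chosen by symbol alone and not by any measured value. By the shape of the assembly they build, 9 genes and 17 probe sets are fibrillar collagens, 8 genes and 12 probe sets are network collagens, and 9 genes and 17 probe sets are fibril-associated collagens. The other members are the beaded filament collagens Col6a1, Col6a2 and Col6a3 with 4 probe sets, the anchoring fibril collagen Col7a1 with 1, the transmembrane collagens Col13a1, Col17a1 and Col25a1 with 3, the multiplexins Col15a1 and Col18a1 with 3, and Col26a1 with 1.

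RNA of whole newborn skin from FVB mice was hybridised to 8 Affymetrix arrays, and each array held RNA pooled from 3 animals. The 4 genotypes had 2 arrays each: pRb+/+, for which the label does not state p107, pRb-/-;p107+/+ (the pRb-mutant arrays), pRb+/+;p107-/- (the p107-mutant arrays) and pRb-/-;p107-/- (the double-mutant arrays). pRb, encoded by Rb1, and p107, encoded by Rbl1, are related proteins that bind E2F transcription factors. The title of the study places the pRb deficiency in the epidermis, the labels name no promoter or Cre driver, and whether dermal cells of the pRb-/- groups keep pRb is not known here. The labels do not say whether the 2 arrays of a genotype came from separate pools, so p-values measure the spread between duplicate arrays, which may be technical.

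Collagens are trimeric matrix proteins. Types I, III and V form the fibrils of the dermis, type IV forms the sheet of basement membranes, type VI forms beaded filaments around cells, types XII and XIV sit on fibril surfaces, and types VII and XVII hold the epidermis to the dermis. Dermal fibroblasts make most of the fibrillar collagen of skin, keratinocytes contribute types VII and XVII, and types II, IX, X and XI are best known from cartilage.

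Promoter stretches are shown for the genes on which the results turn, and were taken from the RefSeq promoter table of build GRCm38.p6, in which 27 of the 36 genes matched. Col5a1 and Col11a1 carried the differences that passed the test. Col1a2 is the type I collagen gene with an entry, and Col17a1 was the collagen whose window held an E2F word. Each stretch is the 250 bases before the annotated start, written 5′ to 3′ on the gene's strand. The capitals mark words found by search on either strand, namely the CCAAT box, the TATA box (searched as TATAAA), the GC box (searched as GGGCGG) and the E2F words TTTCCCGC, TTTCGCGC, TTTGCCGC and TTTGGCGC. Capitals that read CCGCCC or ATTGG are GC and CCAAT words on the other strand. No matches overlap in the stretches shown.
Col5a1, chr2:27886175-27886424, plus strand: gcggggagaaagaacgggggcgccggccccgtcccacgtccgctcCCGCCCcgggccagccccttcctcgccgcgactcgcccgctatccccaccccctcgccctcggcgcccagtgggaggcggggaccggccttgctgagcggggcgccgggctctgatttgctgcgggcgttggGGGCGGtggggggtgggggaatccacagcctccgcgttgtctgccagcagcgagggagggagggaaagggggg
Col11a1, chr3:114030290-114030539, plus strand: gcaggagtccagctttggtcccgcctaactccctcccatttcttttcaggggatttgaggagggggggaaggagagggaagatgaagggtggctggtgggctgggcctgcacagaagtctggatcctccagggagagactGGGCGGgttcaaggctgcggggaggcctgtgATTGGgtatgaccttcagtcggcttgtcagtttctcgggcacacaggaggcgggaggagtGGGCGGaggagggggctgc
Col1a2, chr6:4505368-4505617, plus strand: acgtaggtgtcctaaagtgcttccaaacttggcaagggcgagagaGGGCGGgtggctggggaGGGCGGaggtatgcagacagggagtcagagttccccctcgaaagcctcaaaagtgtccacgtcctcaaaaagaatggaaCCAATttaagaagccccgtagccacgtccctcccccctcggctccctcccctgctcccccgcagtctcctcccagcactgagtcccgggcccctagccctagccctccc
Col17a1, chr19:47692043-47692292, minus strand: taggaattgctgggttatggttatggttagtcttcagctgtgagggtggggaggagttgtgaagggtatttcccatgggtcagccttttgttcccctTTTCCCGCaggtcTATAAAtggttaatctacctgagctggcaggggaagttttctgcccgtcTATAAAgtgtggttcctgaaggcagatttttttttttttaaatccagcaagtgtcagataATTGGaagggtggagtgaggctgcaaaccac
The type IV genes Col4a1 and Col4a2 lie head to head on opposite strands of chromosome 8, and their annotated starts are 21 bases apart. The 22 bases from the Col4a2 start to the Col4a1 start are shown because both genes begin inside them, and they hold a GC box.
Col4a2 start to Col4a1 start, chr8:11312805-11312826, plus strand: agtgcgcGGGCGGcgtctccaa

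In the table's 300-base windows, of which 50 bases follow the start, the GC box was found in 17 of the 30 collagen windows, 56.7%, against 35.7% of all 32851 windows. Collagen windows had a median GC content of 59.3%, against 52.7% over all windows. CCAAT was found in 40% against 37.4%, and TATAAA in 16.7% against 13.6%. An E2F word was found in 1 collagen window, that of Col17a1, which is 3.33% against 2.26%. A match is a description of these letters and not of a bound site.

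The deposited values are z-scores, scaled so that every probe set averages 0 with an SD of 1 across the 8 arrays. A value says how high an array stood within its own probe set, in SD units. RNA levels and fold changes cannot be read from it, and values of different probe sets do not compare their abundance. Differences between 2 genotypes, in SD units, carry the standard error (SE) of a linear model fitted with limma to all 8 arrays, 2 per genotype. Adjusted p-values are from the unmoderated test of that model, with Benjamini-Hochberg adjustment over 22626 probe sets. A member rose or fell only where its adjusted p was below 0.05.

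Before the collagens, the targeted genes and the arrays were checked. Rb1 read 1.21 and 1.07 on the pRb+/+ arrays, -0.22 and 0.36 on the pRb-mutant arrays, 0.02 and 0.40 on the p107-mutant arrays, and -1.56 and -1.28 on the double-mutant arrays. It was lower without overlap on the pRb-mutant than on the pRb+/+ arrays and on the double-mutant than on the p107-mutant arrays, and fell on loss of both (-2.56, adjusted p = 0.0391, limma). Rb1 was also lower without overlap on the p107-mutant than on the pRb+/+ arrays, with a difference of -0.93 against -1.07 for the pRb mutant. The p107-mutant arrays overlapped the pRb-mutant arrays, so Rb1 did not separate the pRb genotypes. Rbl1 1424156_at read 0.08 and 0.21 on the pRb+/+ arrays, 1.30 and 1.14 on the pRb-mutant arrays, -1.51 and -1.22 on the p107-mutant arrays, and -0.31 and 0.31 on the double-mutant arrays. On both Rbl1 probe sets each p107-/- group was lower without overlap than the group of the same pRb genotype, but no such difference was called, and the double-mutant arrays did not lie wholly below the pRb+/+ arrays on 1424156_at. The labels do not say which parts of the genes were deleted, and a probe set outside them checks no label. Duplicate arrays correlated at r = 0.17, 0.04, 0.35 and 0.28 over all probe sets, in the order of the genotypes above. Control probe sets for Gapdh averaged -1.47 and -1.52 on the pRb+/+ arrays and -0.03 to 0.84 on the others, and those for beta-actin averaged -1.0 and -1.08 on the double-mutant arrays and -0.86 to 1.41 on the others. The difference of 5′ and 3′ beta-actin control probe sets, a sign of RNA quality, was -1.40 and -0.56 on the pRb+/+ arrays and 0.04 to 0.57 on the others, while that of Gapdh was 0.20 and -0.05 against -0.51 to 0.62. The part of these array differences in the collagen values was not tested.

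The collagen median was highest on the p107-mutant arrays, and the lowest genotype mean was most often that of the double mutant. On pRb-mutant replicate 2 the median was slightly below that on double-mutant replicate 2. The median over the 58 probe sets was 0.55 and 0.49 on the p107-mutant arrays and -0.72 and -0.39 on the double-mutant arrays. It was -0.09 and 0.23 on the pRb+/+ arrays and -0.04 and -0.42 on the pRb-mutant arrays. The median of all tested probe sets leaned the same way by less, with 0.22 and 0.10 on the p107-mutant arrays and -0.15 and -0.08 on the double-mutant arrays. The highest genotype mean was on the p107-mutant arrays for 29 of the 58, 50%, against 31.1% of all tested probe sets. The lowest was on the double-mutant arrays for 25, 43.1%, against 30.1%. Both held for 13 probe sets, 22.4%, against 6.68%, and 7 of those 13 were fibrillar. pRb+/+ was the highest genotype for 16 probe sets, 27.6% against 23.5%, and the pRb mutant for 5, 8.62% against 23.7%. The pRb mutant was the lowest for 17, 29.3% against 22.9%.

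**Figure D1:**
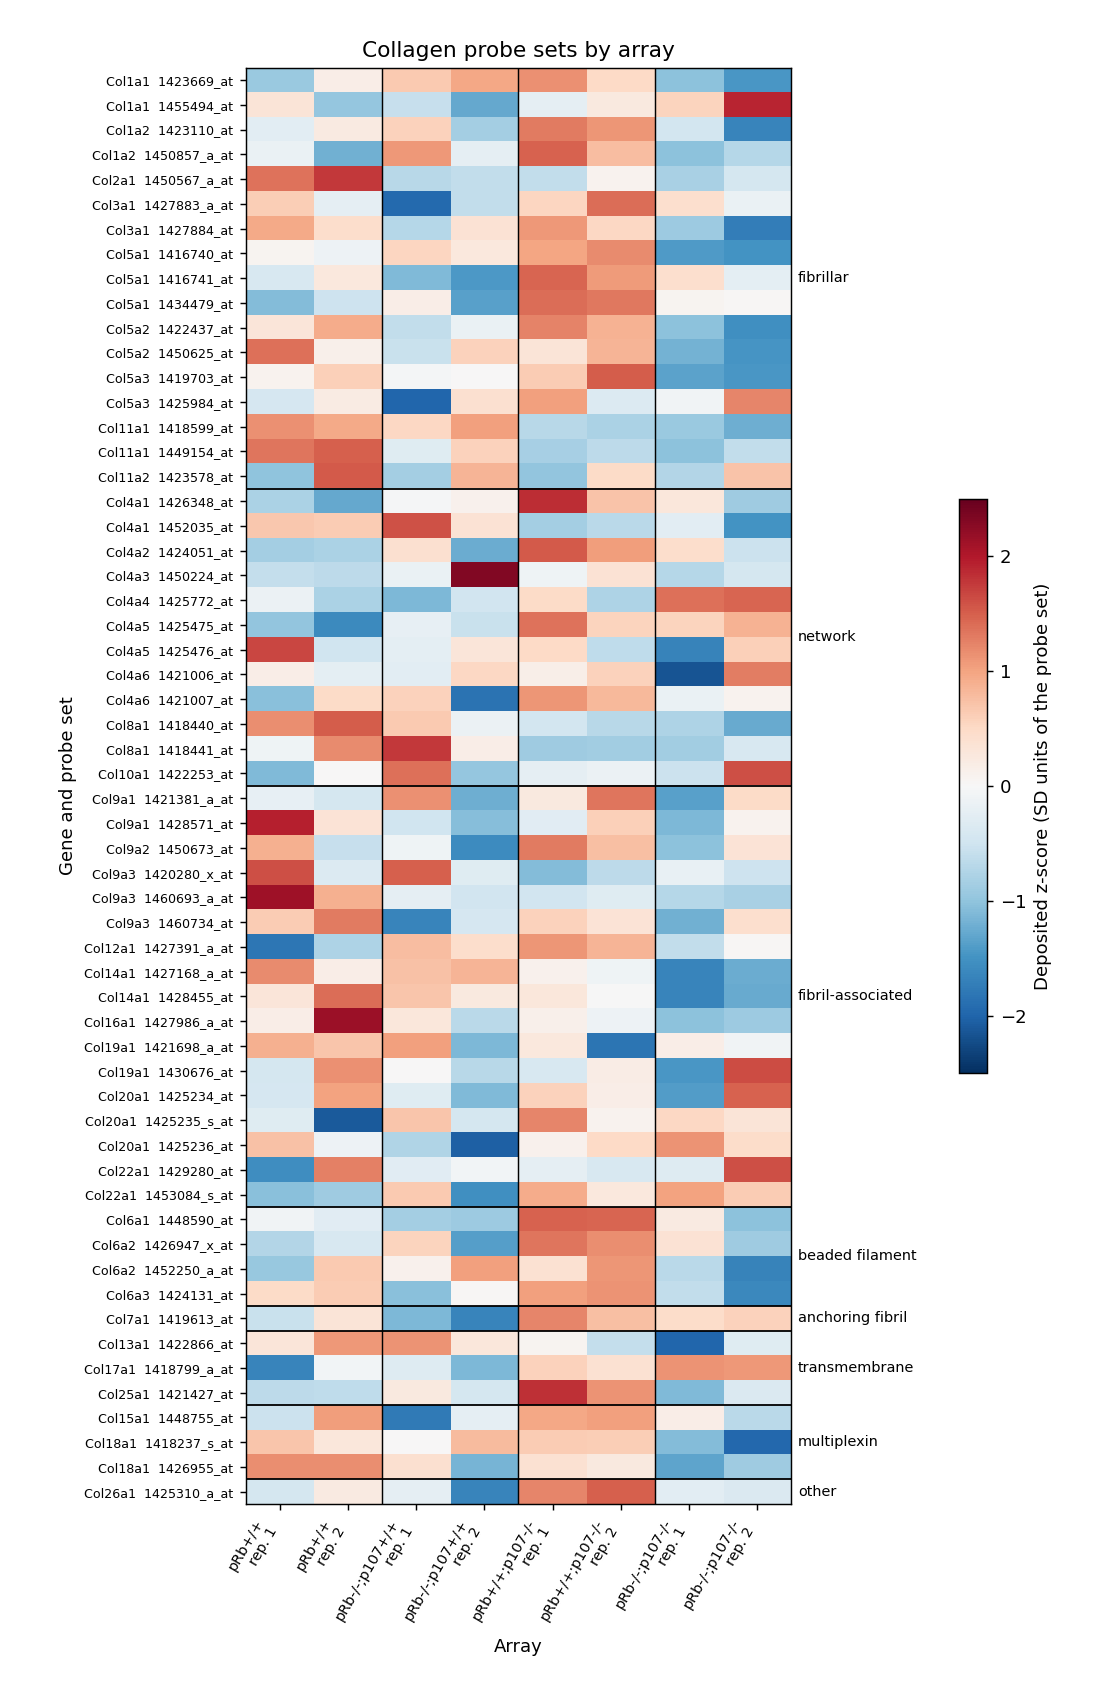
Deposited z-scores of the 58 collagen probe sets (rows, by class) on the 8 arrays (columns, 2 per genotype), in SD units of each probe set, red above and blue below its mean. The median over all rows is 0.55 and 0.49 on the p107-mutant arrays and -0.72 and -0.39 on the double-mutant arrays.

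Few single members passed the test. Loss of pRb where p107 was kept had 0 of 58 collagen probe sets called, with 0% of all probe sets called. At an unadjusted p below 0.05 it had 10 members, 17.2%, against 13.4% of all probe sets. Loss of p107 in pRb+/+ skin had 0 of 58, against 0.42%, and 14 members, 24.1%, against 19.4% at an unadjusted p below 0.05. Loss of p107 in pRb-/- skin called 1 member, 1.72%, against 1.37%. Loss of pRb in p107-/- skin called 1, 1.72%, against 0.256%. Loss of both called 2, 3.45%, against 2.94%, and the F test over the 4 genotypes called 1, 1.72%, against 1.28%. The interaction asks whether the effect of p107 loss depends on pRb. It called 0 against 0%, with 10 members, 17.2%, against 13.1% at an unadjusted p below 0.05. limma's moderated test called 0 collagen probe sets in each of these comparisons, and its share over all probe sets is not given here. Each count of called members was 0, 1 or 2 of 58.

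Counts of members whose 2 arrays of a genotype lay wholly on 1 side of the 2 arrays of the other differed more from the background. Loss of pRb in p107-/- skin put 33 of 58 lower, 56.9%, against 33.7% of all probe sets, and 5 higher, 8.62%, against 17.2%. With the median of each array subtracted, 28 members were lower, 48.3% against 24.2%. Without double-mutant replicate 1 the count lower was 34, 58.6% against 48%, and without replicate 2 it was 45, 77.6% against 49.9%. Loss of p107 in pRb-/- skin put 21 lower, 36.2% against 28.2%, and 8 higher, 13.8% against 22.9%. Without pRb-mutant replicate 2 the count lower in that comparison was 32, 55.2% against 45.5%. Without pRb-mutant replicate 1 it was 23, 39.7% against 38.3%, near the background. Loss of both put 24 lower, 41.4% against 26.9%, and 10 higher, 17.2% against 28.5%. Loss of pRb where p107 was kept put 16 lower, 27.6% against 17.4%, and 7 higher, 12.1% against 23%. Loss of p107 in pRb+/+ skin put 23 higher, 39.7% against 35.2%, and 15 lower, 25.9% against 22.1%, both near the background. Comparisons that share a genotype share its arrays.

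On loss of pRb in p107-/- skin the fibrillar collagens had the lowest median of the 3 large classes. The median difference was -1.31 for the fibrillar collagens, -0.45 for the network collagens and -0.38 for the fibril-associated collagens, against -0.33 over all tested probe sets. Fibrillar members were negative in 14 of 17, 82.4%, network members in 9 of 12, 75%, and fibril-associated members in 11 of 17, 64.7%, against 62.6% of all probe sets. Of the fibrillar members 12 of 17 were lower without overlap, against 33.7% of all probe sets. Without double-mutant replicate 1 and replicate 2 the fibril-associated median was -0.08 and -1.29, and without p107-mutant replicate 1 the network median was -0.27.

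For loss of both, the medians were -1.04, 0.14 and -0.49 in the same order, against 0.10. Single arrays moved these: without double-mutant replicate 1 the fibril-associated median was 0.14, and without replicate 2 it was -1.17 and the network median -0.04. Leaving out pRb+/+ replicate 1 or 2 or double-mutant replicate 1 gave network medians of 0.02, 0.25 and 0.23, and pRb+/+ replicate 2 a fibril-associated median of -0.84.

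For loss of pRb where p107 was kept, the medians were -0.60, 0.37 and -0.70, against 0.12. Without pRb-mutant replicate 1 they were -0.34, -0.28 and -1.05, so the network median changed sign, and without pRb-mutant replicate 2 they were -1.03, 0.90 and -0.14. Without pRb+/+ replicate 2 the fibrillar and fibril-associated medians were -0.38 and -0.35.

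For loss of p107, class medians had opposite signs in the 2 pRb backgrounds, but no interaction of a member was called. In pRb+/+ skin the medians were 0.45 for fibrillar, 0.38 for network and -0.47 for fibril-associated members, against 0.35 over all probe sets, so the first pair lay close to the background. In pRb-/- skin they were -0.91, -0.45 and 0.25, against -0.10. The interaction had a fibrillar median of -1.18, a network median of -0.56 and a fibril-associated median of 0.55, against -0.44. The network median in pRb-/- skin changed sign to 0.14 when the probe sets of a gene were averaged first, and the fibrillar median there went to -0.01. Without double-mutant replicate 1 the network and fibril-associated medians in pRb-/- skin were 0.23 and 0.51, and without replicate 2 they were -0.89 and -0.38. Without pRb-mutant replicate 1 the fibril-associated median there was 0.71, and without replicate 2 it was -0.28 and the fibrillar median -0.60. In pRb+/+ skin the fibrillar and fibril-associated medians were 0.75 and -0.16 without pRb+/+ replicate 2, and the fibril-associated median -0.26 without p107-mutant replicate 1. Differences between classes were not tested.

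**Figure D2:**
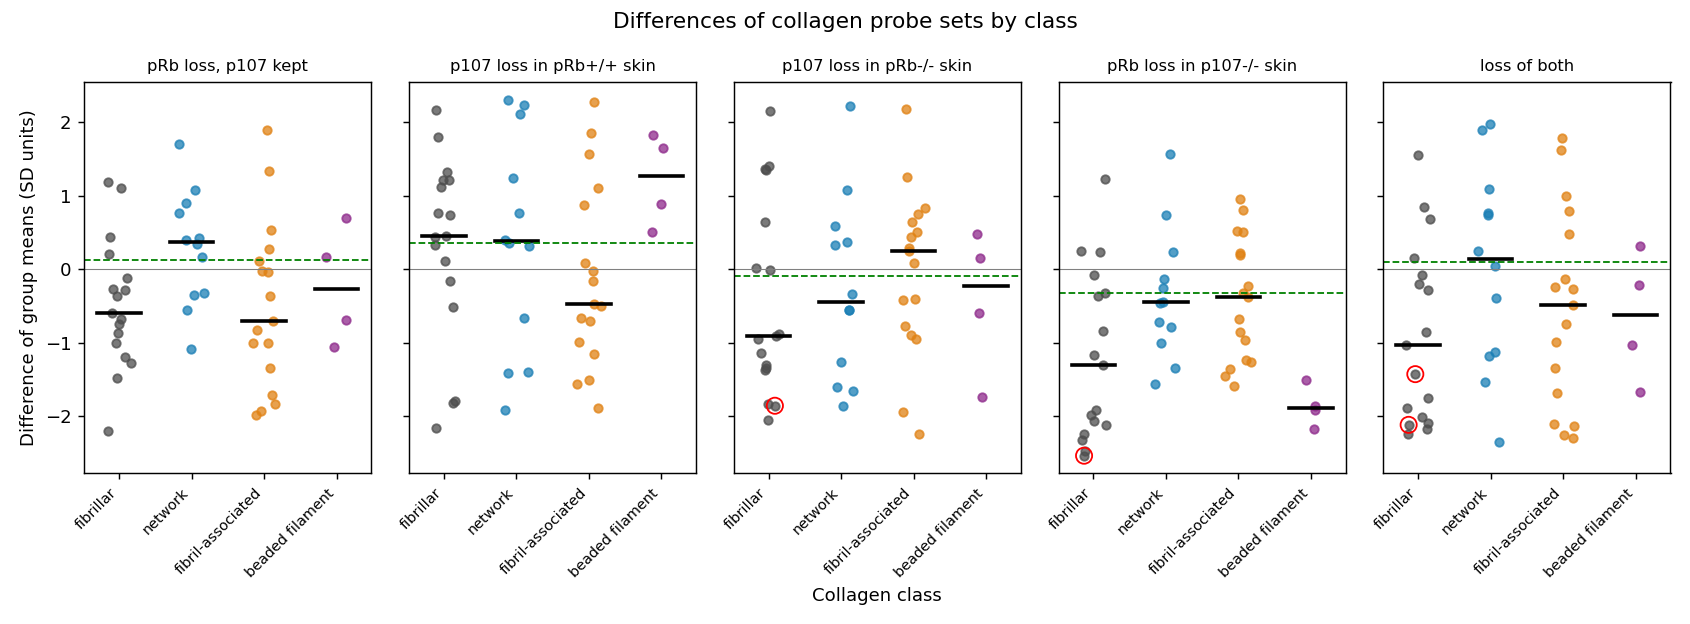
Difference of genotype means in SD units (y axis) for each collagen probe set of 4 classes (x axis) in 5 comparisons. Points are probe sets, red rings mark adjusted p below 0.05, black bars are class medians, and the dashed green line is the median of all tested probe sets; in loss of pRb in p107-/- skin the bars lie at -1.31, -0.45, -0.38 and -1.89 and the line at -0.33.

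Col5a1 was the collagen with the clearest genotype pattern, on 1 of its 3 probe sets. It encodes the main chain of type V collagen, a minor component that sits inside type I fibrils and sets their width. Probe set 1416740_at read 0.06 and -0.13 on the pRb+/+ arrays, 0.53 and 0.27 on the pRb-mutant arrays, 0.99 and 1.18 on the p107-mutant arrays, and -1.42 and -1.49 on the double-mutant arrays. The order p107 mutant above pRb mutant above pRb+/+ above double mutant held with no overlap between any genotypes. It fell in double-mutant skin against each other genotype. The difference was -1.86 ± 0.13 on loss of p107 in pRb-/- skin (adjusted p = 0.0316, limma), -2.54 ± 0.13 on loss of pRb in p107-/- skin (adjusted p = 0.0396, limma) and -1.43 ± 0.13 on loss of both (adjusted p = 0.033, limma). The F test gave an adjusted p of 0.036 (limma), and the interaction was -2.98 ± 0.19 (adjusted p = 0.0765, limma). Leaving out any 1 of the 8 arrays ended each pairwise call, with adjusted p from 0.0609 to 0.28 (limma) and the sign kept.

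The other Col5a1 probe sets shared the high end of this pattern and not the low end. Probe set 1416741_at read -0.41 and 0.27 on the pRb+/+ arrays, -1.10 and -1.44 on the pRb-mutant arrays, 1.45 and 1.06 on the p107-mutant arrays, and 0.42 and -0.25 on the double-mutant arrays. Probe set 1434479_at read -1.09 and -0.51 on the pRb+/+ arrays, 0.16 and -1.35 on the pRb-mutant arrays, 1.40 and 1.31 on the p107-mutant arrays, and 0.06 and 0.03 on the double-mutant arrays. All 3 probe sets had both p107-mutant arrays above the other 6 arrays, while 1416740_at alone of the 3 had the double-mutant arrays below the other 6.

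Col5a2, the second chain of type V collagen, stood lowest in double-mutant skin on both probe sets. Probe set 1422437_at read 0.30 and 0.93 on the pRb+/+ arrays, -0.61 and -0.17 on the pRb-mutant arrays, 1.24 and 0.86 on the p107-mutant arrays, and -1.03 and -1.53 on the double-mutant arrays. Its difference on loss of pRb in p107-/- skin was -2.33 ± 0.35 (adjusted p = 0.145, limma). Probe set 1450625_at read 1.38 and 0.12 on the pRb+/+ arrays, -0.56 and 0.57 on the pRb-mutant arrays, 0.32 and 0.85 on the p107-mutant arrays, and -1.19 and -1.48 on the double-mutant arrays, and both double-mutant arrays were again below the other 6. Of the 2 probe sets of Col5a3, a less common type V chain, 1419703_at read 0.09 and 0.60 on the pRb+/+ arrays, -0.05 and 0.00 on the pRb-mutant arrays, 0.64 and 1.51 on the p107-mutant arrays, and -1.34 and -1.46 on the double-mutant arrays. The double-mutant arrays of 1419703_at were the lowest of the 8, with a difference of -2.48 ± 0.36 on loss of pRb in p107-/- skin (adjusted p = 0.14, limma). The other Col5a3 probe set, 1425984_at, differed by 0.23 ± 1.10 there.

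Type I collagen is the bulk of dermal fibrils, and the 2 probe sets of its major chain, Col1a1, ran in opposite directions. Probe set 1423669_at read -0.93 and 0.16 on the pRb+/+ arrays, 0.66 and 0.96 on the pRb-mutant arrays, 1.15 and 0.49 on the p107-mutant arrays, and -1.03 and -1.46 on the double-mutant arrays. Its double-mutant arrays were the lowest of the 8. Probe set 1455494_at read 0.33 and -0.97 on the pRb+/+ arrays, -0.57 and -1.27 on the pRb-mutant arrays, -0.23 and 0.24 on the p107-mutant arrays, and 0.56 and 1.90 on the double-mutant arrays, with the double-mutant arrays the highest of the 8. On loss of p107 in pRb-/- skin 1423669_at differed by -2.05 ± 0.49 (adjusted p = 0.151, limma), and 1455494_at by 2.15 ± 0.72 (adjusted p = 0.241, limma). These were among the 3 most negative and the 3 most positive differences of all collagens in that comparison, so no direction can be given for Col1a1. The interaction of 1423669_at, -3.26 ± 0.69 (adjusted p = 0.222, limma), was the most negative of the 58.

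Both probe sets of Col1a2, the partner chain of Col1a1 in type I collagen, followed the Col1a1 probe set 1423669_at. Probe set 1423110_at read -0.26 and 0.23 on the pRb+/+ arrays, 0.58 and -0.85 on the pRb-mutant arrays, 1.30 and 1.10 on the p107-mutant arrays, and -0.45 and -1.65 on the double-mutant arrays. Probe set 1450857_a_at read -0.16 and -1.20 on the pRb+/+ arrays, 1.08 and -0.22 on the pRb-mutant arrays, 1.48 and 0.77 on the p107-mutant arrays, and -1.03 and -0.71 on the double-mutant arrays. On each, the double-mutant arrays lay wholly below the p107-mutant arrays, by -2.25 ± 0.68 and -1.99 ± 0.65 (adjusted p = 0.349 and 0.375, limma). The interaction of 1450857_a_at was -3.10 ± 0.92 (adjusted p = 0.316, limma).

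Col3a1 encodes the single chain of type III collagen, which is plentiful in fetal and newborn skin. Probe set 1427884_at read 0.95 and 0.44 on the pRb+/+ arrays, -0.72 and 0.36 on the pRb-mutant arrays, 1.08 and 0.52 on the p107-mutant arrays, and -0.90 and -1.73 on the double-mutant arrays, and its double-mutant arrays were the lowest of the 8. Probe set 1427883_a_at read 0.62 and -0.22 on the pRb+/+ arrays, -1.94 and -0.62 on the pRb-mutant arrays, 0.53 and 1.39 on the p107-mutant arrays, and 0.42 and -0.17 on the double-mutant arrays, and there the pRb-mutant arrays were lowest instead. On loss of both 1427884_at differed by -2.01 ± 0.55 and 1427883_a_at by -0.08 ± 0.67 (adjusted p = 0.152 and 0.959, limma). The probe sets shared a positive mean in p107-mutant skin.

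The 13 probe sets of types I, III and V were then taken without the type II and XI probe sets, a grouping chosen after values were seen. Loss of pRb in p107-/- skin put 11 of the 13 lower without overlap and 1 higher, Col1a1 1455494_at, against 33.7% lower and 17.2% higher of all probe sets. The median was -1.99 against -0.33. Loss of p107 in pRb+/+ skin was positive in 12 of 13, with a median of 0.76, against 58.8% and 0.35 over all probe sets. In that comparison 7 were higher without overlap, against 35.2% of all probe sets. Array medians of these 13 probe sets were 1.08 and 0.86 on the p107-mutant arrays and -0.90 and -1.46 on the double-mutant arrays, and the other 4 arrays lay between -0.56 and 0.16.

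**Figure D3:**
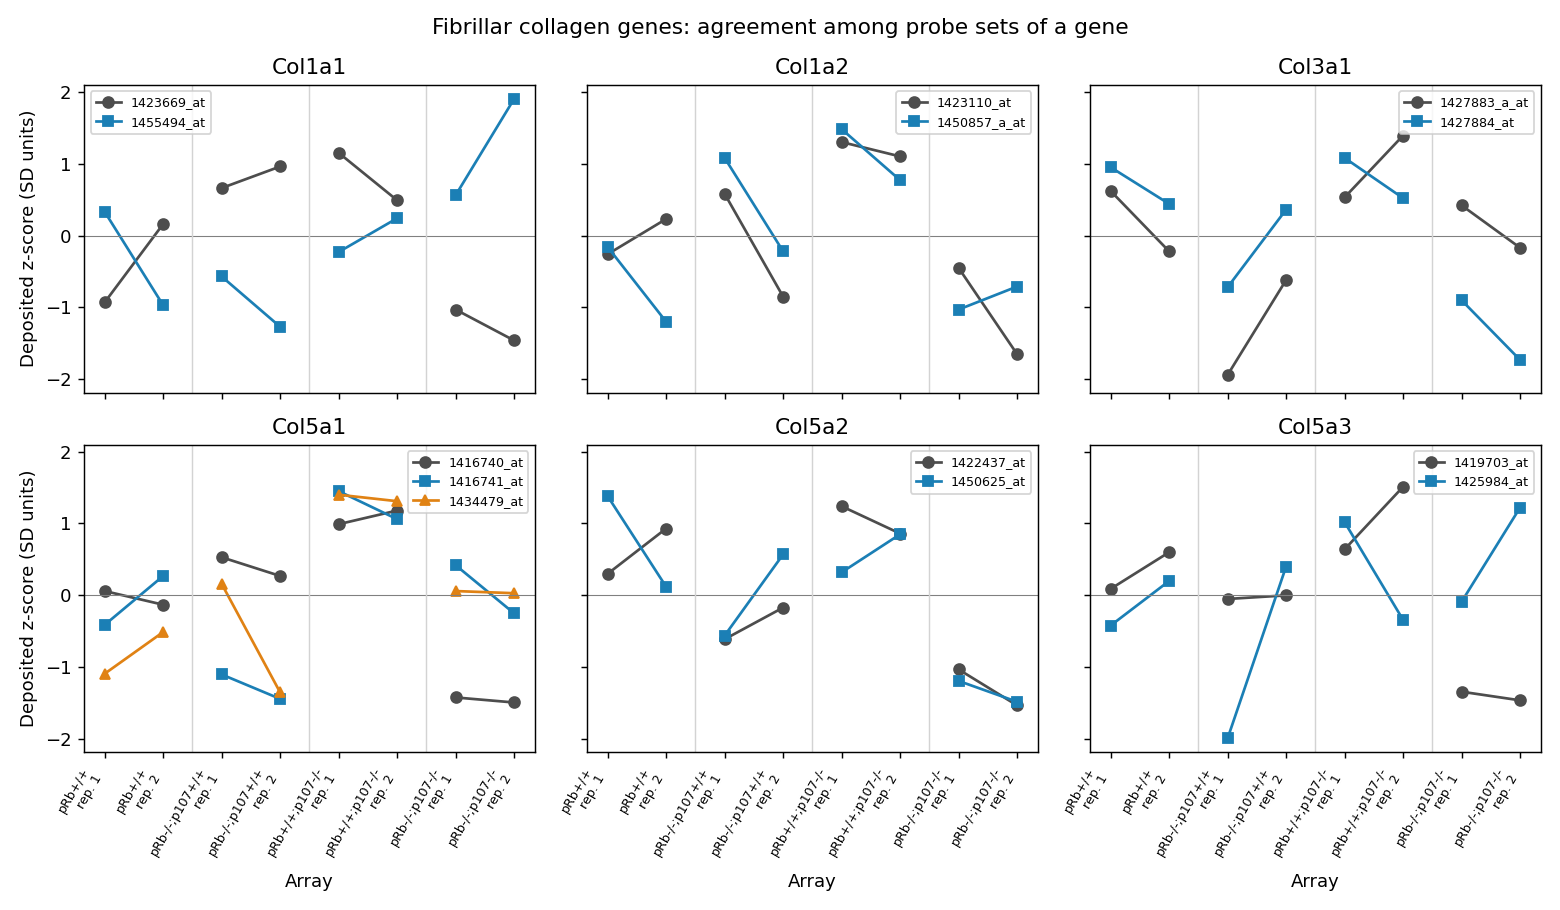
Deposited z-scores (y axis, SD units) of each probe set of 6 fibrillar collagen genes on the 8 arrays (x axis). Lines join the 2 arrays of a genotype and colours mark probe sets; the probe sets of Col5a2 both lie lowest in double-mutant skin, whereas on the double-mutant arrays Col1a1 1423669_at reads -1.03 and -1.46 and Col1a1 1455494_at reads 0.56 and 1.90.

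Collagen genes best known from cartilage had another pattern than these dermal fibril genes, with their highest median on the pRb+/+ arrays. The group of Col2a1, Col9a1, Col9a2, Col9a3, Col10a1, Col11a1 and Col11a2, with 11 probe sets, was formed after values were seen and is given as a description. Its array medians were 1.15 and 0.89 on the pRb+/+ arrays, and ran from -0.92 to 0.08 on the other 6. The median difference was -1.0 on loss of pRb where p107 was kept, -0.99 on loss of p107 in pRb+/+ skin and -1.35 on loss of both, against 0.12, 0.35 and 0.10 over all probe sets. These comparisons share the pRb+/+ arrays. The same 2 arrays had the lowest beta-actin 5′ minus 3′ and Gapdh control values given above, and their 18 hybridization control probe sets averaged 0.37 and 2.05 against -0.80 to 0.09 on the others, and the part of these in the result was not tested.

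Col11a1, a chain of type XI collagen that nucleates fibrils, fell on loss of both. Probe set 1418599_at read 1.15 and 0.95 on the pRb+/+ arrays, 0.51 and 1.03 on the pRb-mutant arrays, -0.70 and -0.79 on the p107-mutant arrays, and -0.92 and -1.22 on the double-mutant arrays. It was high on the 4 arrays with p107 or with p107 unstated and low on the 4 p107-/- arrays, with no overlap. The difference on loss of both was -2.12 ± 0.22 (adjusted p = 0.0394, limma), and on loss of p107 it was -1.79 ± 0.22 in pRb+/+ skin (adjusted p = 0.0784, limma) and -1.84 ± 0.22 in pRb-/- skin (adjusted p = 0.0612, limma). Without any 1 array the adjusted p on loss of both ran from 0.056 to 0.183 (limma). Spiked-in poly-A control probe sets of the arrays split by p107 in the same way, with means over 24 control probe sets from 0.19 to 1.38 on the 4 arrays without the p107-/- label and from -0.96 to -0.55 on the 4 p107-/- arrays, and their part in the result was not tested.

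The second Col11a1 probe set, 1449154_at, read 1.34 and 1.50 on the pRb+/+ arrays, -0.30 and 0.57 on the pRb-mutant arrays, -0.83 and -0.65 on the p107-mutant arrays, and -1.03 and -0.61 on the double-mutant arrays. Here the pRb+/+ arrays alone were highest. Its difference was -2.16 ± 0.35 on loss of p107 in pRb+/+ skin (adjusted p = 0.0988, limma), the most negative of the 58 there, and -2.24 ± 0.35 on loss of both (adjusted p = 0.0665, limma). Col11a2, another chain of type XI, read -1.0 and 1.54 on the pRb+/+ arrays, -0.84 and 0.84 on the pRb-mutant arrays, -0.98 and 0.47 on the p107-mutant arrays, and -0.74 and 0.71 on the double-mutant arrays, and its duplicate arrays differed more than its genotypes did. Its replicate 1 lay below its replicate 2 in each genotype.

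Col2a1, the chain of type II collagen, read 1.35 and 1.76 on the pRb+/+ arrays, -0.70 and -0.61 on the pRb-mutant arrays, -0.62 and 0.08 on the p107-mutant arrays, and -0.82 and -0.44 on the double-mutant arrays. Both pRb+/+ arrays were above the other 6. The difference was -2.20 ± 0.32 on loss of pRb where p107 was kept (adjusted p = 0.153, limma), the most negative of the 58, and -2.18 ± 0.32 on loss of both (adjusted p = 0.0579, limma). Its interaction, 1.84 ± 0.45 (adjusted p = 0.243, limma), was among the 3 most positive.

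Type IX collagen decorates type II fibrils, and its probe sets were less uniform. Col9a3 1460693_a_at read 2.11 and 0.89 on the pRb+/+ arrays, -0.22 and -0.47 on the pRb-mutant arrays, -0.48 and -0.30 on the p107-mutant arrays, and -0.72 and -0.81 on the double-mutant arrays. Col9a3 1460734_at read 0.63 and 1.29 on the pRb+/+ arrays, -1.65 and -0.42 on the pRb-mutant arrays, 0.57 and 0.35 on the p107-mutant arrays, and -1.20 and 0.42 on the double-mutant arrays. On both, the pRb+/+ arrays were the highest. The first differed by -1.89 ± 0.45 on loss of p107 in pRb+/+ skin (adjusted p = 0.158, limma) and the second by -1.99 ± 0.76 on loss of pRb where p107 was kept (adjusted p = 0.396, limma). Col9a1 1428571_at read 1.94 and 0.35 on the pRb+/+ arrays, -0.49 and -1.07 on the pRb-mutant arrays, -0.28 and 0.59 on the p107-mutant arrays, and -1.13 and 0.08 on the double-mutant arrays, high on 1 pRb+/+ array in particular, and differed by -1.93 ± 0.80 on loss of pRb where p107 was kept (adjusted p = 0.428, limma). The other Col9a1 probe set, 1421381_a_at, differed by 0.28 ± 1.13 there. Col10a1, the collagen of hypertrophic cartilage, read -1.10 and 0.00 on the pRb+/+ arrays, 1.38 and -0.96 on the pRb-mutant arrays, -0.23 and -0.15 on the p107-mutant arrays, and -0.54 and 1.61 on the double-mutant arrays, with no order by genotype.

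Non-collagen chondrocyte markers did not move as a group with these collagens. The list of 8 genes and 11 probe sets had a median difference of -0.39 on loss of both, with 6 of 11 negative and 0 called. Over all probe sets the median was 0.10, with 47.7% negative and 2.94% called. Acan, the main cartilage proteoglycan, read 1.35 and 1.46 on the pRb+/+ arrays, -0.92 and -0.81 on the pRb-mutant arrays, 0.00 and -1.11 on the p107-mutant arrays, and 0.41 and -0.38 on the double-mutant arrays, and Cnmd read 0.59 and 2.10 on the pRb+/+ arrays, -0.68 and -0.65 on the pRb-mutant arrays, -0.52 and -0.47 on the p107-mutant arrays, and 0.45 and -0.82 on the double-mutant arrays. Both were highest on the pRb+/+ arrays. Comp read -1.20 and -1.12 on the pRb+/+ arrays, 1.00 and -0.12 on the pRb-mutant arrays, 0.43 and 1.58 on the p107-mutant arrays, and -0.75 and 0.17 on the double-mutant arrays, and Chad read -0.48 and -1.25 on the pRb+/+ arrays, -0.76 and -0.62 on the pRb-mutant arrays, 1.43 and 1.40 on the p107-mutant arrays, and -0.18 and 0.46 on the double-mutant arrays. Those were low on the pRb+/+ arrays. Array medians of the list ran from -0.45 to 0.08, and its part in the collagen result was not tested.

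**Figure D4:**
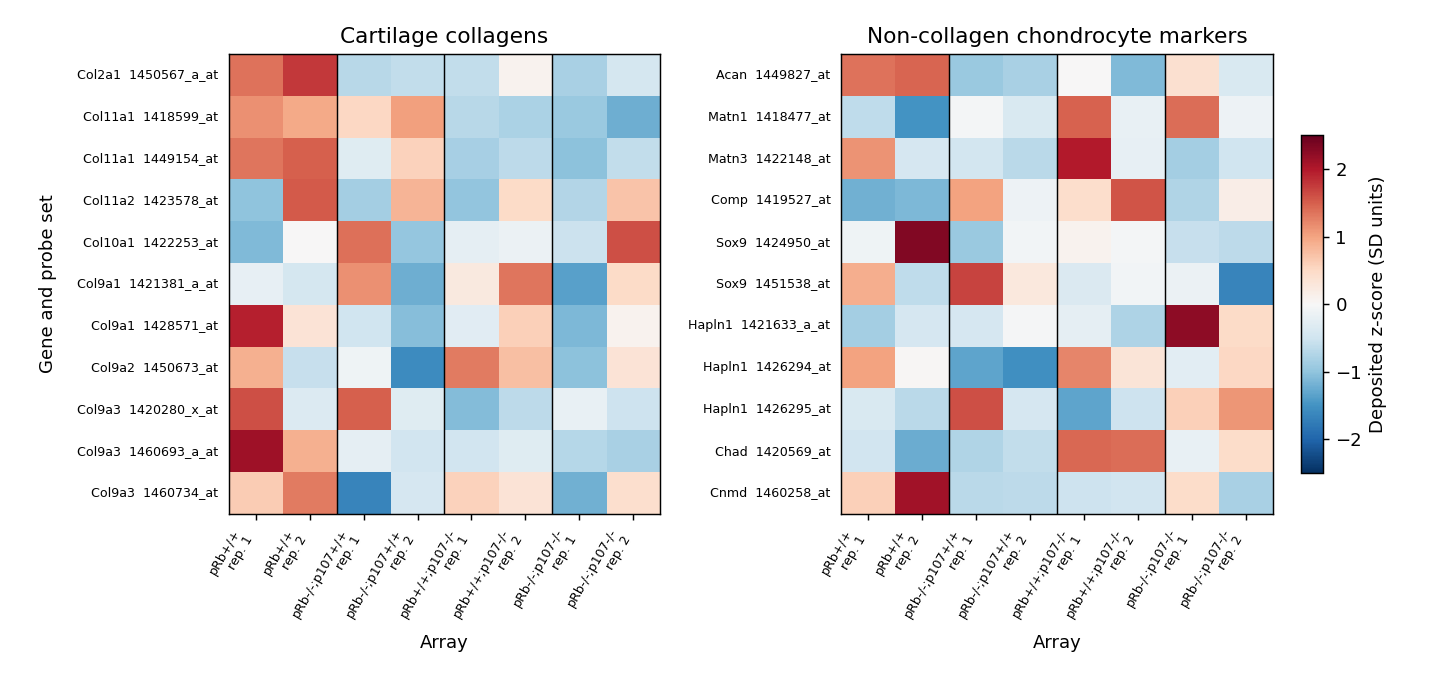
Deposited z-scores in SD units of 11 probe sets of cartilage collagens (left) and 11 probe sets of non-collagen chondrocyte markers (right) on the 8 arrays (columns, 2 per genotype). The left panel has array medians of 1.15 and 0.89 on the pRb+/+ arrays and of at most 0.08 on the others, and the array medians of the right panel lie between -0.45 and 0.08.

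Among network collagens, the basement membrane genes Col4a1 and Col4a2 were highest in p107-mutant skin on 2 of their 3 probe sets. They encode the chains of the type IV collagen found in all basement membranes, from the head-to-head genes shown above. Col4a1 1426348_at read -0.79 and -1.27 on the pRb+/+ arrays, -0.02 and 0.11 on the pRb-mutant arrays, 1.85 and 0.71 on the p107-mutant arrays, and 0.29 and -0.88 on the double-mutant arrays. Col4a2 1424051_at read -0.84 and -0.80 on the pRb+/+ arrays, 0.41 and -1.25 on the pRb-mutant arrays, 1.53 and 1.05 on the p107-mutant arrays, and 0.43 and -0.53 on the double-mutant arrays. On both, the p107-mutant arrays were above the other 6, and the difference on loss of p107 in pRb+/+ skin was 2.30 ± 0.60 for Col4a1 and 2.11 ± 0.70 for Col4a2 (adjusted p = 0.179 and 0.233, limma). Across the 8 arrays these 2 probe sets correlated with r = 0.81, as a description of arrays that share their normalization. The second Col4a1 probe set, 1452035_at, read 0.67 and 0.64 on the pRb+/+ arrays, 1.60 and 0.37 on the pRb-mutant arrays, -0.84 and -0.67 on the p107-mutant arrays, and -0.27 and -1.49 on the double-mutant arrays. It was lower on the 4 p107-/- arrays, and correlated with Col4a2 at r = -0.31. The poly-A controls given above for Col11a1 split the arrays in the same way, and their part was not tested.

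The remaining type IV chains build the basement membranes of particular tissues, and showed no shared pattern. Col4a3 1450224_at read -0.59 and -0.66 on the pRb+/+ arrays, -0.16 and 2.31 on the pRb-mutant arrays, -0.10 and 0.37 on the p107-mutant arrays, and -0.72 and -0.44 on the double-mutant arrays, where 1 pRb-mutant array stood far above the rest. Col4a4 1425772_at read -0.14 and -0.80 on the pRb+/+ arrays, -1.12 and -0.48 on the pRb-mutant arrays, 0.48 and -0.78 on the p107-mutant arrays, and 1.38 and 1.46 on the double-mutant arrays, and both double-mutant arrays were the highest. Its difference of 2.22 ± 0.55 on loss of p107 in pRb-/- skin was the most positive of the 58 (adjusted p = 0.16, limma). On loss of pRb in p107-/- skin Col4a4 differed by 1.57 ± 0.55, also the most positive of the 58 (adjusted p = 0.404, limma).

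Col4a5 1425475_at read -0.98 and -1.59 on the pRb+/+ arrays, -0.20 and -0.56 on the pRb-mutant arrays, 1.35 and 0.56 on the p107-mutant arrays, and 0.55 and 0.86 on the double-mutant arrays. The 4 p107-/- arrays lay above the other 4, with 2.24 ± 0.39 on loss of p107 in pRb+/+ skin and 1.98 ± 0.39 on loss of both (adjusted p = 0.108 and 0.0927, limma). The poly-A controls given above for Col11a1 separated the same arrays, in the opposite direction, and their part was not tested. The second Col4a5 probe set, 1425476_at, differed by -1.13 ± 1.20 on loss of both, with the opposite sign to 1425475_at. The 2 probe sets of Col4a6 differed by -0.39 ± 1.26 and 0.24 ± 1.02 on loss of both, within their standard errors.

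Col8a1, a network collagen of vessel walls and corneal basement membrane, was low on the p107-/- arrays. Probe set 1418440_at read 1.17 and 1.52 on the pRb+/+ arrays, 0.65 and -0.14 on the pRb-mutant arrays, -0.46 and -0.69 on the p107-mutant arrays, and -0.78 and -1.26 on the double-mutant arrays, and its 4 p107-/- arrays lay below the other 4. The difference was -2.36 ± 0.36 on loss of both (adjusted p = 0.063, limma), the most negative of the 58, and -1.92 ± 0.36 on loss of p107 in pRb+/+ skin (adjusted p = 0.118, limma). Probe set 1418441_at, which differed by -1.18 ± 0.74 on loss of both, also had its 4 p107-/- arrays below the other 4. The poly-A control probe sets split the arrays in the same way, as given above for Col11a1.

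Of the fibril-associated collagens, Col14a1 and Col12a1 sit on type I fibrils in skin, and their patterns differed. Col14a1 1427168_a_at read 1.18 and 0.16 on the pRb+/+ arrays, 0.73 and 0.84 on the pRb-mutant arrays, 0.10 and -0.10 on the p107-mutant arrays, and -1.66 and -1.25 on the double-mutant arrays. Col14a1 1428455_at read 0.30 and 1.39 on the pRb+/+ arrays, 0.70 and 0.25 on the pRb-mutant arrays, 0.28 and -0.01 on the p107-mutant arrays, and -1.66 and -1.26 on the double-mutant arrays. The double-mutant arrays were the lowest on both, and the p107-mutant arrays lay wholly below the pRb+/+ arrays on both. On loss of p107 in pRb-/- skin the probe sets differed by -2.24 ± 0.40 and -1.94 ± 0.45 (adjusted p = 0.102 and 0.148, limma), the first being the most negative of the 58. On loss of both they differed by -2.13 ± 0.40 and -2.30 ± 0.45 (adjusted p = 0.0854 and 0.0927, limma).

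Col12a1 1427391_a_at read -1.81 and -0.77 on the pRb+/+ arrays, 0.78 and 0.43 on the pRb-mutant arrays, 1.11 and 0.85 on the p107-mutant arrays, and -0.62 and 0.03 on the double-mutant arrays. Both single mutants were above pRb+/+ and above the double mutant without overlap. The difference was 1.90 ± 0.46 on loss of pRb where p107 was kept, 2.27 ± 0.46 on loss of p107 in pRb+/+ skin and -3.17 ± 0.65 for the interaction (adjusted p = 0.254, 0.129 and 0.215, limma). The first of these was the most positive of the 58 in its comparison.

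The other fibril-associated members had wide spread between duplicate arrays. Col16a1 1427986_a_at, expressed in dermis and at its junction, read 0.16 and 2.14 on the pRb+/+ arrays, 0.29 and -0.67 on the pRb-mutant arrays, 0.13 and -0.13 on the p107-mutant arrays, and -1.02 and -0.90 on the double-mutant arrays. Its double-mutant arrays were the lowest of the 8, and the pRb+/+ arrays ranged from 0.16 to 2.14. Col20a1 1425236_at read 0.74 and -0.12 on the pRb+/+ arrays, -0.75 and -2.04 on the pRb-mutant arrays, 0.10 and 0.49 on the p107-mutant arrays, and 1.12 and 0.46 on the double-mutant arrays, with 2.18 ± 0.61 on loss of p107 in pRb-/- skin (adjusted p = 0.19, limma). The interaction of 1425236_at, 2.21 ± 0.87 (adjusted p = 0.412, limma), was the most positive of the 58. Col20a1 1425235_s_at read -0.30 and -2.09 on the pRb+/+ arrays, 0.69 and -0.43 on the pRb-mutant arrays, 1.22 and 0.08 on the p107-mutant arrays, and 0.52 and 0.32 on the double-mutant arrays, and its largest departure was a single pRb+/+ array.

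Col22a1, known from muscle-tendon junctions, read -1.55 and 1.25 on the pRb+/+ arrays, -0.29 and -0.07 on the pRb-mutant arrays, -0.22 and -0.40 on the p107-mutant arrays, and -0.33 and 1.62 on the double-mutant arrays on 1429280_at. Its difference on loss of pRb in p107-/- skin was 0.96 ± 1.21, smaller than its standard error, although it was among the 3 most positive there. Col22a1 1453084_s_at and the 2 probe sets of Col19a1 differed by 1.78 ± 0.82, -0.75 ± 1.07 and -0.27 ± 1.27 on loss of both. Col9a2 1450673_at, Col9a3 1420280_x_at and Col20a1 1425234_at differed by -0.49 ± 0.90, -0.99 ± 0.96 and -0.25 ± 1.18. All 6 had an adjusted p from 0.312 to 0.925 (limma).

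Type VI collagen, which forms beaded filaments next to cells and basement membranes, was high in p107-mutant skin. Loss of p107 in pRb+/+ skin was positive in 4 of 4 probe sets with a median of 1.27, against 58.8% and 0.35 over all probe sets. Loss of pRb in p107-/- skin was lower without overlap in 4 of 4, against 33.7% of all probe sets, with a median of -1.89 against -0.33. None passed the test, and the adjusted p on loss of pRb in p107-/- skin ran from 0.265 to 0.597 (limma). Col6a1 1448590_at read -0.08 and -0.29 on the pRb+/+ arrays, -0.85 and -0.91 on the pRb-mutant arrays, 1.47 and 1.46 on the p107-mutant arrays, and 0.22 and -1.02 on the double-mutant arrays. Col6a3 1424131_at read 0.48 and 0.63 on the pRb+/+ arrays, -1.05 and 0.03 on the pRb-mutant arrays, 1.02 and 1.12 on the p107-mutant arrays, and -0.61 and -1.62 on the double-mutant arrays. On both, the p107-mutant arrays were the highest.

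The 2 probe sets of Col6a2 agreed less. Probe set 1426947_x_at read -0.74 and -0.40 on the pRb+/+ arrays, 0.55 and -1.38 on the pRb-mutant arrays, 1.33 and 1.17 on the p107-mutant arrays, and 0.37 and -0.89 on the double-mutant arrays. Probe set 1452250_a_at read -0.94 and 0.66 on the pRb+/+ arrays, 0.10 and 1.03 on the pRb-mutant arrays, 0.38 and 1.11 on the p107-mutant arrays, and -0.68 and -1.67 on the double-mutant arrays. Only the first had both p107-mutant arrays above the other 6. Col6a1 correlated with Col6a3 at r = 0.75 and with Col6a2 1426947_x_at at r = 0.80 over the 8 arrays, and with Col6a2 1452250_a_at at r = 0.37.

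The collagens of the dermal-epidermal junction did not share the low values of the dermal fibril genes in double-mutant skin. Col7a1, the anchoring fibril collagen, read -0.55 and 0.33 on the pRb+/+ arrays, -1.12 and -1.66 on the pRb-mutant arrays, 1.22 and 0.75 on the p107-mutant arrays, and 0.45 and 0.57 on the double-mutant arrays. It was highest in p107-mutant and lowest in pRb-mutant skin, with 1.90 ± 0.40 on loss of p107 in pRb-/- skin (adjusted p = 0.128, limma). Col17a1, the transmembrane collagen of hemidesmosomes, read -1.66 and -0.06 on the pRb+/+ arrays, -0.32 and -1.12 on the pRb-mutant arrays, 0.57 and 0.38 on the p107-mutant arrays, and 1.12 and 1.09 on the double-mutant arrays. The 4 p107-/- arrays lay above the other 4, and the double-mutant arrays were the highest. Its difference on loss of both, 1.96 ± 0.63 (adjusted p = 0.192, limma), was among the 3 most positive of the 58. The poly-A controls given above for Col11a1 separated the same arrays, in the opposite direction, and their part in the Col17a1 values was not tested. The keratinocyte marker list of 8 genes and 13 probe sets had a median of 1.09 on loss of both, with 11 of 13 positive. Over all probe sets the median was 0.10, with 52.3% positive. The part of the keratinocyte list in the Col17a1 and Col7a1 values was not tested. In that list 1 probe set rose, Trp63 1452027_a_at, against 2.94% of all probe sets called. The other 2 Trp63 probe sets had differences of -1.10 ± 0.73 and 2.25 ± 0.30.

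Of the remaining members, the multiplexin Col18a1, a basement membrane collagen and the parent of endostatin, was low in double-mutant skin. Probe set 1426955_at read 1.16 and 1.17 on the pRb+/+ arrays, 0.40 and -1.17 on the pRb-mutant arrays, 0.39 and 0.25 on the p107-mutant arrays, and -1.32 and -0.88 on the double-mutant arrays, with -2.27 ± 0.58 on loss of both (adjusted p = 0.138, limma). Probe set 1418237_s_at read 0.70 and 0.29 on the pRb+/+ arrays, 0.01 and 0.80 on the pRb-mutant arrays, 0.64 and 0.61 on the p107-mutant arrays, and -1.08 and -1.96 on the double-mutant arrays, and the double-mutant arrays were the lowest of the 8. Col15a1, the related multiplexin, differed by -1.26 ± 0.83 on loss of pRb in p107-/- skin. The transmembrane collagens Col25a1 and Col13a1 differed by -2.20 ± 0.43 and -0.88 ± 0.75 there, and Col26a1 by -1.67 ± 0.57. None of these 4 passed the test, with adjusted p from 0.208 to 0.746 (limma).

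Agreement among probe sets of a gene limited what could be said of single collagens. Over 25 pairs of probe sets of the same collagen gene, the median correlation across the 8 arrays was 0.30, against 0.19 over 12821 such pairs of all genes. The collagen value was 0.19 with array medians subtracted or with quantile normalization, and 0.18 without p107-mutant replicate 1, p107-mutant replicate 2 or double-mutant replicate 2. With all arrays as deposited, r was below 0 for 7 pairs, 28% against 36.8%, and above 0.7 for 6 pairs, 24% against 12.8%. The pairs of Col11a1 (r = 0.88), Col14a1 (r = 0.81), Col5a2 (r = 0.77), Col1a2 (r = 0.71) and Col8a1 (r = 0.71) agreed well. Those of Col3a1 (r = 0.41), Col6a2 (r = 0.30) and Col18a1 (r = 0.54) agreed in part, and the 3 pairs of Col5a1 ran from 0.20 to 0.79. Col1a1 (r = -0.79), Col4a1 (r = -0.30), Col5a3 (r = -0.19), Col4a5 (r = -0.15) and Col4a6 (r = -0.04) did not agree.

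The sign of the difference was the same on all probe sets of a gene for 14 of 19 collagen genes on loss of pRb in p107-/- skin, 73.7% against 59% of 4956 genes with 2 or more probe sets. It was the same for 12 on loss of p107 in pRb+/+ skin, 63.2% against 44.4%, and for 11 on loss of both, 57.9% against 48.2%. For loss of p107 in pRb-/- skin it was 10, 52.6% against 50.4%, for loss of pRb where p107 was kept 9, 47.4% against 40.2%, and for the interaction 8, 42.1% against 47%. The genes that kept the sign in the first of these include Col1a2, Col3a1, Col5a1, Col5a2, Col6a2, Col14a1 and Col18a1, and Col1a1 and Col5a3 did not. With 1 probe set per gene, chosen by name, the fibrillar median on loss of pRb in p107-/- skin was -2.12 in place of -1.31, and with the probe sets of a gene averaged first it was -1.13.

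Chains that assemble together correlated on some probe sets. Col1a1 1423669_at had r = 0.68 and 0.66 with the 2 probe sets of Col1a2, while Col1a1 1455494_at had -0.42 and -0.19. Col5a1 1416740_at had r = 0.79 and 0.74 with those of Col5a2. Col2a1 had r = 0.86 with Col9a3 1460693_a_at and 0.84 with Col11a1 1449154_at. Between probe sets of different collagen genes the mean r was 0.114 over 1628 pairs, against 0.0195 over all pairs of tested probe sets. These correlations are descriptions over 8 arrays that share depth, normalization and genotype.

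The genes that fold, modify, cut, crosslink and degrade collagen were listed together with inhibitors of its breakdown and collagen receptors. This list had 38 measured genes with 75 probe sets, ordered by role. On loss of pRb in p107-/- skin 64 of 75 were negative, against 62.6% of all probe sets, with a median of -0.86 against -0.33. In that comparison 0 were called, against 0.256%. On loss of p107 in pRb-/- skin 55 of 75 were negative, against 52.7%, with a median of -1.10 against -0.10. In that comparison 1 was called, against 1.37% of all probe sets. The list medians on the arrays were -0.61 and -0.95 in double-mutant skin and between -0.13 and 0.51 on the other 6 arrays.

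By role, prolyl hydroxylation, which stabilises the triple helix, was negative in 11 of 11 probe sets on loss of pRb in p107-/- skin, with a median of -1.66. Of all probe sets 62.6% were negative there, with a median of -0.33. P4ha1 1452094_at differed by -2.04 ± 0.76 and P3h1 1421462_a_at by -2.01 ± 0.48. Lysyl hydroxylation and glycosylation was negative in 6 of 6 with a median of -0.96, and Plod1, a lysyl hydroxylase, differed by -2.04 ± 0.64. Chaperones and export factors were negative in 3 of 5, near the share of all probe sets, with a median of -1.53. Serpinh1 encodes HSP47, the chaperone dedicated to procollagen, and its probe set 1450843_a_at read 0.10 and -0.33 on the pRb+/+ arrays, 0.28 and -0.01 on the pRb-mutant arrays, 1.34 and 1.24 on the p107-mutant arrays, and -1.19 and -1.44 on the double-mutant arrays. It followed the order of Col5a1 1416740_at at both ends, with a difference of -2.60 ± 0.21 (adjusted p = 0.0614, limma). The second Serpinh1 probe set, 1456733_x_at, differed by -2.11 ± 0.34 there.

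On loss of pRb in p107-/- skin propeptide cleavage genes were negative in 6 of 8 with a median of -0.49. Crosslinking genes were negative in 5 of 7 with a median of -1.13, against 62.6% and -0.33 over all probe sets. Loxl3, a lysyl oxidase, differed by -2.23 ± 0.71 and Lox 1448228_at by -1.92 ± 0.56, while the other 2 Lox probe sets differed by -0.49 ± 0.52 and 0.13 ± 1.08. The breakdown and uptake list was negative in 21 of 22 with a median of -0.97. It mixes proteases with their inhibitors Timp1, Timp2 and Timp3, so it gives no direction for breakdown. Collagen receptors were negative in 12 of 16 with a median of -0.31, close to that of all probe sets. Loss of p107 in pRb-/- skin and loss of both each called 1 of the 75, against 1.37% and 2.94% of all probe sets. The 1 called gene of the list was Timp3, an inhibitor of matrix metalloproteinases. Its probe set 1449335_at read 0.79 and 0.51 on the pRb+/+ arrays, 1.15 and 1.10 on the pRb-mutant arrays, -0.46 and -0.68 on the p107-mutant arrays, and -1.30 and -1.11 on the double-mutant arrays, and fell by 2.33 ± 0.14 (SE) on loss of p107 in pRb-/- skin (adjusted p = 0.0247, limma) and by 1.85 ± 0.14 on loss of both (adjusted p = 0.0236, limma). The other 3 Timp3 probe sets differed by -1.13 ± 0.31, -2.31 ± 0.53 and -2.12 ± 0.64 on loss of p107 in pRb-/- skin. On loss of both they differed by 1.18 ± 0.31, -0.73 ± 0.53 and -0.68 ± 0.64, the first with the opposite sign. The poly-A controls given above for Col11a1 separated the p107-/- arrays from the other 4 as 1449335_at did, and their part in the result was not tested.

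Markers of the cells that make or border collagen moved with some of these values. In bulk skin fewer cells of a type and less RNA per cell cannot be told apart, and z-scores do not show whether a marker is present at all. Fibroblast markers, 16 probe sets, were negative in 13 on loss of pRb in p107-/- skin with a median of -0.75, against 62.6% and -0.33 over all probe sets. They had array medians of -0.52 and -1.04 on the double-mutant arrays and -0.13 to 0.52 on the others. On loss of both 11 of 16 were negative with a median of -0.93, against 47.7% and 0.10 over all probe sets. In that comparison 1 was called, Dpt, which fell (-2.25 ± 0.29, adjusted p = 0.0496, limma), against 2.94% of all probe sets called. Fbln1 1451119_a_at differed by 2.16 ± 0.38 there, with the opposite sign. Adipocyte markers were negative in 9 of 10 with a median of -1.31 on loss of pRb in p107-/- skin. Adipoq fell on loss of p107 in pRb-/- skin (-2.54 ± 0.18, adjusted p = 0.0313, limma), where 1.37% of all probe sets were called.

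In the same comparison, loss of pRb in p107-/- skin, the median was -0.63 for chondrocyte, 0.52 for osteoblast, 0.12 for keratinocyte and -0.41 for skeletal muscle markers. It was -0.56 for endothelial, -0.56 for Schwann cell and -0.46 for smooth muscle and pericyte markers, against -0.33 over all probe sets. Schwann cell markers had 4 of 14 probe sets called on loss of both, all lower, 3 of Mbp and 1 of Pmp22, against 2.94% of all probe sets called. That list had 10 of 14 negative with a median of -1.73, against 47.7% and 0.10 over all probe sets. Mbp 1425263_a_at differed by 1.55 ± 0.91. On loss of p107 in pRb-/- skin the skeletal muscle list was negative in 8 of 11 with a median of -1.47. Over all probe sets 52.7% were negative there, with a median of -0.10. The 1 called probe set of that list, Tnni1 1450813_a_at, rose, against 1.37% of all probe sets called. The part of any of these cell types in the collagen values was not tested.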

How the data were processed

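Whole newborn skin was profiled on 8 Affymetrix arrays, 2 per genotype, each with pooled RNA of 3 animals from 30 mg of skin, per the labels' protocols and the series' text. Background correction, normalization and summary of probes by RMA are named in the submitters' processing notes, with no version. The deposited value is a score: each probe set has mean 0 and SD 1 over the 8 arrays, a step no label records, and no source used here says whether log or linear values were standardized. A score over 8 arrays cannot exceed 2.47 in size, so differences saturate. The sample titles gave groups and replicate numbers. Signal over background cannot be read, and the number of arrays limits precision.

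Of 22690 probe sets, 64 array controls were left out, and 22626 were tested. The platform annotation gave 20380 a single symbol, 691 several and 1555 none, and none with several symbols was named. Each probe set was fitted by limma 3.58.1 in R 4.3.3 with 1 coefficient for each genotype, with 4 residual degrees of freedom. The unmoderated test was used because it is the same on scores as on the values behind them. Adjustment was by Benjamini-Hochberg over 22626 probe sets, with a threshold of 0.05, and the script was tested on simulated data. Alternatives were the moderated test, array medians subtracted, quantile normalization, a replicate block, single-symbol probe sets alone, other ways to combine probe sets, and leaving out each array. The main fit did not pair the arrays by replicate number.

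The members, the gene lists (collagen processing by 7 roles, markers of 9 cell types) and the tests were chosen with earlier results of these data known. Values in every array were given for all probe sets of Col1a1, Col1a2, Col3a1, Col4a1, Col4a2, Col6a1, Col6a2, Col6a3, Col7a1, Col12a1, Col14a1 and Col17a1, for called members, and for the 3 most positive and 3 most negative members of each comparison. Other named members were added after values were seen. Promoter stretches came from RefSeq, build GRCm38.p6, and both strands were searched.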

Additional observations from a re-analysis of the deposited data

How the results depend on the processing

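Collagen probe sets called in loss of p107 in pRb-/- skin, loss of pRb in p107-/- skin and the F test went from 1 to 0, and in loss of both from 2 to 0, with the moderated test, with the replicate block (3 residual degrees of freedom) and without any 1 array. With array medians subtracted or quantile normalization the first 3 counts were also 0, and loss of both had 1 with quantile normalization. The share of all probe sets called under each alternative is not given here, so these counts have no background beside them. Calls of Col5a1 1416740_at and Col11a1 1418599_at lost in these settings kept their sign, with adjusted p from 0.056 to 0.374 (limma). Correlations of duplicate deviations between genotypes, taken over all probe sets, ran from -0.13 to 0.11. A replicate effect on single probe sets was not tested.

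Of 60 class medians recomputed without leaving out an array, 39 moved by less than the spread between arrays. With array medians subtracted the fibrillar medians were 0.14 for p107 loss in pRb+/+ skin and -1.03 for pRb loss in p107-/- skin. The network medians were then 0.18 (pRb loss, p107 kept), 0.07 (p107 loss in pRb+/+ skin), -0.30 (the same in pRb-/- skin) and -0.17 (pRb loss in p107-/- skin). Quantile normalization gave network medians of 0.18, 0.07 and -0.18 for pRb loss with p107 kept, p107 loss in pRb+/+ skin and pRb loss in p107-/- skin. Averaging the probe sets of a gene first gave network medians of 0.61 and 0.14 for p107 loss in pRb+/+ and pRb-/- skin. It gave fibrillar medians of -0.01 for p107 loss in pRb-/- skin and -0.62 for loss of both, and a fibril-associated median of -0.96 for pRb loss in p107-/- skin. With 1 probe set per gene chosen by name, fibrillar medians were -0.28 (pRb loss, p107 kept), -2.12 (pRb loss in p107-/- skin) and -1.75 (loss of both), and network medians 0.58 (pRb loss, p107 kept), 0.58 (p107 loss in pRb+/+ skin), -0.01 (the same in pRb-/- skin) and 0.75 (loss of both). The cause of these moves was not tested.

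Without 1 array, fibrillar medians ran from -1.03 to -0.34 (pRb loss, p107 kept), 0.39 to 0.75 (p107 loss in pRb+/+ skin), -1.14 to -0.60 (the same in pRb-/- skin), -1.51 to -1.26 (pRb loss in p107-/- skin) and -1.46 to -0.79 (loss of both). Network medians ran from -0.28 to 0.90, 0.38 to 0.54, -0.89 to 0.23, -0.63 to -0.27 and -0.04 to 0.25 in that order, and fibril-associated medians from -1.05 to -0.14, -0.52 to -0.16, -0.38 to 0.71, -1.29 to -0.08 and -1.17 to 0.14. Of 180 class medians, 9 changed sign. The median correlation among probe sets of a gene was 0.19 with array medians subtracted and with quantile normalization, and 0.18 to 0.37 without 1 array. Counts of probe sets without overlap, an alternative chosen after seeing the data, stayed within 1.5 times under both scalings. Without 1 array they ran from 23 to 32 (p107 loss in pRb+/+ skin, higher) and 21 to 32 (the same in pRb-/- skin, lower). These were 39.7% to 55.2% against 35.2% to 51.9% of all probe sets, and 36.2% to 55.2% against 28.2% to 45.5%. The counts ran from 33 to 45 (pRb loss in p107-/- skin, lower) and 24 to 32 (loss of both, lower). Those were 56.9% to 77.6% against 33.7% to 49.9%, and 41.4% to 55.2% against 26.9% to 41.1%. The shares of all probe sets thus rose as well.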
